A study of Homo sapiens with 24 samples.

Results

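The claudins described here were 9 genes, CLDN1, CLDN2, CLDN3, CLDN4, CLDN7, CLDN11, CLDN12, CLDN15 and CLDN23, found by exact match of the gene symbol in a table of 28307 genes that held 24 claudin genes. They were picked with earlier results of these data known, and CLDN2 was selected on the measured difference of its drug response between the 2 sorted populations of SW620 cells. That difference, the SW620 contrasts that make it up and their averages are therefore given as descriptions of CLDN2, without a test. Both lines are human, SUM159 from a breast carcinoma and SW620 from a colon carcinoma. Cells of each line were grown with nifuroxazide (NIF), a nitrofuran antibiotic that is also used as an inhibitor of STAT3 signalling, or with its solvent DMSO for 30 h, and ALDHbr and ALDHneg cells were sorted on the ALDEFLUOR assay, in which a fluorescent product accumulates in cells with high aldehyde dehydrogenase activity. The ALDHbr cells carry the label of cancer stem cells. No group carried a transgene or an engineered deletion according to the labels. Each of the 8 groups (2 lines, 2 populations, NIF or DMSO) held 3 libraries from independent experiments, 24 in all. Each tissue of origin was represented by a single line, so line and tissue cannot be told apart.

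Claudins are multi-pass membrane proteins that form the strands of the tight junction, the seal between neighbouring epithelial cells. Some members, such as CLDN1, CLDN3 and CLDN4, are known mainly as barrier-forming, while CLDN2 and CLDN15 form channels for small cations and, in the case of CLDN2, water. Claudins bind scaffold proteins such as TJP1 (ZO-1) through their cytoplasmic ends, and several are repressed during epithelial-mesenchymal transition (EMT), when cells lose junctions. In the intestine CLDN3, CLDN4 and CLDN7 are abundant in the lining epithelium, and CLDN2 is known from the crypts.

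The total per library ran from about 30253200 to 43127900 counts (median 36520900), and levels are given as CPM, the counts relative to the library size, which was adjusted by TMM within each line. One library stood apart in the genes described here. The SUM159 library of ALDHbr cells under DMSO labelled replicate 3 held 19 counts of CLDN3, 46 of CLDN4, 14 of CLDN7 and 5 of CLDN2, against at most 0, 27, 4 and 3 in the other 11 SUM159 libraries. In the same library EPCAM had 87 counts, CDH1 68, KRT20 75 and LGALS4 55, against at most 11, 6, 1 and 19 elsewhere in the line. The 9 colon epithelial markers other than KRT8 summed to 242 counts there and to 8 to 44 in the other 11 libraries, with 2 of the 9 (CDX1 and CDX2) at 0. With KRT8 included, the 10 markers summed to 9530 counts there, within the 7415 to 14052 of the SUM159 libraries. For CLDN2, CLDN3, CLDN4, CLDN7, EPCAM, CDH1, KRT20 and LGALS4 its counts came to between 0.0823% and 0.461% of the mean count in SW620 ALDHbr cells under DMSO. VIL1 (17 counts, at most 8 elsewhere in the line) came to 0.291%. GPA33 (3, at most 1) and MYO1A (4, at most 11) came to 3.18% and 4.72%. CDH17 had 1 count against at most 2 elsewhere, and CLDN23 had 0. The source of these reads was not tested. In SW620 the library of ALDHbr cells under DMSO labelled replicate 2 moved the comparison of the populations, as given there. The sort was checked on ALDH1A1, an aldehyde dehydrogenase that oxidises retinal. It stood at 135 ± 27.7 CPM in SUM159 ALDHbr and 0.48 ± 0.062 CPM in ALDHneg cells under DMSO, and at 1314 ± 51.3 and 901 ± 19.3 CPM in SW620 (SD, n = 3 in each group), higher in ALDHbr cells in both lines (edgeR adjusted p = 1.63e-10 in SUM159 and 1.12e-05 in SW620). ALDH1A3, the other gene of the sort check, was higher in ALDHbr cells of SUM159 (log2 1.60, edgeR adjusted p = 0.0158) and lower in those of SW620 (log2 -0.36, edgeR adjusted p = 0.000723). Under NIF both genes were called lower in SW620, in ALDHbr cells (median log2 -0.97) and ALDHneg cells (-1.30). There 43.3% and 45.1% of all genes passed. In SUM159 neither was called within a population (medians -0.44 and -1.10), and 1 was lower averaged over the populations. The part of this change in the claudin values was not tested. The line labels were checked on 10 mesenchymal markers, which summed to 242135 to 407831 counts in the SUM159 libraries and to 560 to 1979 in the SW620 libraries.

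**Figure D1:**
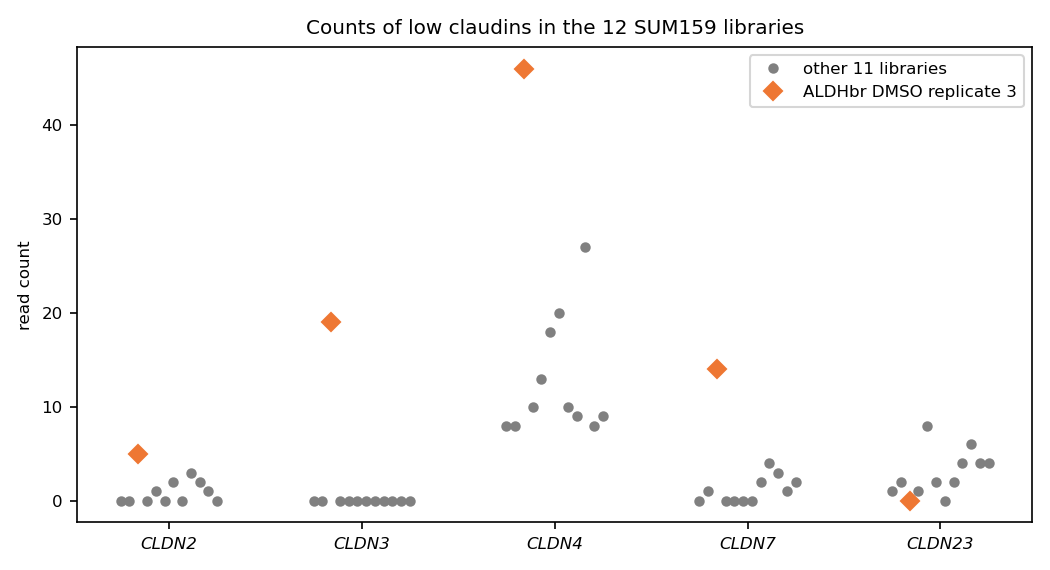
Read counts (vertical axis) of CLDN2, CLDN3, CLDN4, CLDN7 and CLDN23 in each of the 12 SUM159 libraries, with ALDHbr DMSO replicate 3 as a diamond and the other 11 libraries as grey points. The diamond lies above all grey points for CLDN2, CLDN3, CLDN4 and CLDN7, at 5, 19, 46 and 14 counts, and at 0 for CLDN23.

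In the RefSeq annotation of GRCh38.p14 the claudin genes lie on several chromosomes. CLDN2 spans chrX:106900164-106930861, CLDN1 chr3:190305707-190322446, CLDN7 chr17:7259903-7263213, CLDN12 chr7:90403461-90415954 and CLDN15 chr7:101232094-101238820. CLDN3 (chr7:73768997-73770270) and CLDN4 (chr7:73830996-73832690), each with a single exon in its reference transcript, are neighbours, with 60725 bases between them. The exon numbers, the exon lengths used for levels per kilobase and the overlaps came from a GENCODE annotation lifted to an earlier genome build. CLDN2 overlaps MORC4 and RIPPLY1 on the opposite strand. CLDN7 overlaps ELP5 on the opposite strand and another coding gene on its own strand. CLDN12 overlaps GTPBP10, CDK14 and PTTG1IP2 on its own strand. The counts of these 3 claudins, and of CLDN11 and CLDN23, which also overlap other genes, are uncertain to the extent that shared reads were split between genes, since the counting step is not given in the sources used here.

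Promoter windows are shown for the members whose RNA moved under NIF and that held a match to a searched motif before a start site. The windows came from RefSeq (GRCh38.p14, 250 bases before to 50 after a start site), and 8 of the 9 members matched, with 11 windows. CLDN23 had no entry. The motifs, searched on both strands, were the E-box CACCTG bound by SNAI and ZEB repressors, the STAT site TTCNNNGAA and the AP-1 site TGANTCA. They were found in 20.6%, 7.66% and 7.71% of all 35116 windows. Printed 5′ to 3′ on the strand of the gene, with the matches in capitals and 30 bases after the start, are the first start of CLDN2 (chrX:106899914-106900193, plus strand), CLDN12 (chr7:90403211-90403490, plus strand), CLDN4 (chr7:73830746-73831025, plus strand) and a second start of CLDN7 (chr17:7262449-7262728, minus strand).
CLDN2: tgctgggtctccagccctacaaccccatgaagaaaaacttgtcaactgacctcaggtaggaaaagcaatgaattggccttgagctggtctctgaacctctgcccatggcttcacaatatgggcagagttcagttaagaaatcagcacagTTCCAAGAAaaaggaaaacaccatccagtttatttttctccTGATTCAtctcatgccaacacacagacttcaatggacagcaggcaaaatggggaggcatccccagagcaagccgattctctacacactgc
CLDN12: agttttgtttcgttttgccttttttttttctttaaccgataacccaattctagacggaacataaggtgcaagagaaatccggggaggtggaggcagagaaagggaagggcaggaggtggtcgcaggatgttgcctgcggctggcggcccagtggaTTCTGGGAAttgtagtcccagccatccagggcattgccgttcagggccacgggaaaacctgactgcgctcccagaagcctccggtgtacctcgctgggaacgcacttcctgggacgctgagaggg
CLDN4: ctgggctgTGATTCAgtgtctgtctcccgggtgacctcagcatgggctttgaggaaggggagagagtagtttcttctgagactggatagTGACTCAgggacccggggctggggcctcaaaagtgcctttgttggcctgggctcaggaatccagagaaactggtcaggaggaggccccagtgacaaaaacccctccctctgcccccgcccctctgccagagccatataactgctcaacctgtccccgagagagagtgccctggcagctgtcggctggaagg
CLDN7: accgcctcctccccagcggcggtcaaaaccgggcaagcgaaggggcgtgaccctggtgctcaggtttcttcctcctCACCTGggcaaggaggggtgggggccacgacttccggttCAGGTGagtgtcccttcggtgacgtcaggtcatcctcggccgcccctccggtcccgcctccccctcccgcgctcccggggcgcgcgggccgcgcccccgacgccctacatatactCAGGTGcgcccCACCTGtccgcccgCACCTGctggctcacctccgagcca
The CLDN2 window held 1 STAT match and 1 AP-1 match, the CLDN12 window 1 STAT match, the CLDN4 window 2 AP-1 matches and this CLDN7 window 5 E-box matches. The other start of CLDN2, the other start of CLDN7 and the window of CLDN1 held none of these motifs. CLDN15 had 1 AP-1 match, CLDN3 1 E-box match after its start and CLDN11 1 STAT match in 1 of its windows. A match describes letters in the window and not binding, which was not measured.

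Levels were first compared between the claudins in SW620, per kilobase of exon in the reference transcript, since longer transcripts collect more reads. CLDN4 was the most abundant, at 230.1 ± 21.1 CPM per kb in ALDHbr cells under DMSO, followed by CLDN3 (147 ± 15.4), CLDN7 (127 ± 12.6), CLDN2 (54.9 ± 2.25), CLDN12 (13.7 ± 1.31), CLDN1 (12.0 ± 0.636), CLDN15 (3.91 ± 0.366) and CLDN23 (1.80 ± 0.142), each as mean and SD with n = 3. The libraries of CLDN3 overlapped those of CLDN7, and those of CLDN12 overlapped those of CLDN1, while no other neighbours in this order overlapped. CLDN11, known from myelin and testis, had 1 to 17 counts in a SW620 library. The order was the same in ALDHneg cells under DMSO, with CLDN3 and CLDN7 overlapping again. The 9 genes together came to 590.4 ± 47.7 CPM per kb in ALDHbr and 497.7 ± 21.0 in ALDHneg cells under DMSO, and to 550.2 ± 39.4 and 508.1 ± 21.3 under NIF.

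Under NIF the make-up of this sum changed more than its size. The share of CLDN2 went from 9.34 ± 0.808% to 3.30 ± 0.251% in ALDHbr cells and from 8.35 ± 0.566% to 1.62 ± 0.0787% in ALDHneg cells. The share of CLDN4 went from 38.9 ± 0.586% to 47.3 ± 0.717% and from 41.7 ± 0.506% to 48.3 ± 0.229% (SD, n = 3). For both genes the libraries under NIF and DMSO did not overlap in either population. CLDN7 passed CLDN3 as the next most abundant claudin under NIF, and CLDN12 passed CLDN2, although in ALDHbr cells the libraries of CLDN12 and CLDN2 overlapped. These shares are descriptions, and a larger share of CLDN4 also follows from the smaller share of other members.

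**Figure D2:**
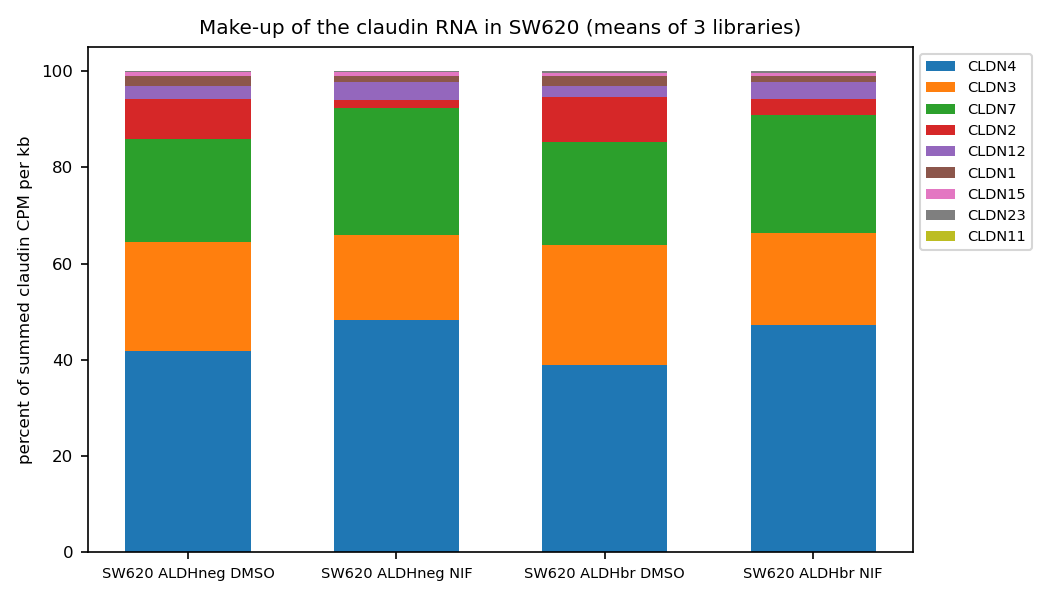
Percent of the summed CPM per kilobase of the 9 claudins (vertical axis) taken by each claudin in the 4 SW620 groups, as means of 3 libraries. The CLDN2 segment shrinks from 9.34% to 3.30% in ALDHbr cells and from 8.35% to 1.62% in ALDHneg cells under NIF, and the CLDN4 segment grows.

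In SW620, CLDN1 and CLDN3 fell under NIF and CLDN4, CLDN7 and CLDN12 rose, averaged over the populations, out of the 7 members besides CLDN2 that passed the filter on low counts (edgeR, adjusted p at most 0.00371). In this comparison 57% of all 13953 genes tested passed the threshold, 27.9% higher and 29.2% lower, so 5 claudins called of 7 lay near the background. In ALDHbr cells, where 43.3% of the genes passed (21.4% higher and 21.9% lower), CLDN12 was called higher and CLDN1 and CLDN3 lower. In ALDHneg cells, where 45.1% passed (22.3% higher and 22.7% lower), CLDN4 and CLDN7 joined CLDN12. CLDN2 had the largest change among the members, CLDN1 and CLDN12 followed, and CLDN15 and CLDN23 did not pass. The median log2 fold change of all genes was -0.0057. Mesenchymal and colon epithelial markers moved as well. The 10 mesenchymal markers, of which 2 to 4 were at 0 in each SW620 library, summed to 15.6 to 18.6 CPM in ALDHbr cells under DMSO and 33.5 to 37.2 CPM under NIF, and to 31.8 to 34.8 and 47.2 to 50.8 CPM in ALDHneg cells. Of the 6 that were tested, 3 were higher under NIF averaged over the populations (ZEB1, AXL and CAV1) and FN1 was lower. Of 10 colon epithelial markers, 2 were higher (KRT20 and LGALS4) and 5 lower (EPCAM, CDX1, CDX2, GPA33 and KRT8). The part of these markers in the claudin changes was not tested. Fewer cells of a kind and less RNA per cell cannot be told apart in these bulk libraries.

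CLDN2, the channel-forming claudin, had 157, 161 and 170 CPM in the SW620 ALDHbr libraries under DMSO and 53.4, 54.3 and 53.0 CPM under NIF. In ALDHneg cells it had 127, 122 and 119 CPM under DMSO and 24.0, 24.4 and 24.6 CPM under NIF. No neighbouring groups overlapped, in the order ALDHbr DMSO, ALDHneg DMSO, ALDHbr NIF and ALDHneg NIF. As a description, it was 3.04-fold lower under NIF in ALDHbr cells (log2 -1.60, 95% interval -1.71 to -1.49) and 5.05-fold lower in ALDHneg cells (log2 -2.34, -2.45 to -2.22). Averaged over the populations the log2 fold change was -1.97 (95% interval -2.05 to -1.89), also as a description.

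CLDN1, which is needed for the skin barrier, had 42.1, 43.4 and 39.1 CPM in ALDHbr cells under DMSO and 25.3, 24.2 and 24.7 under NIF. In ALDHneg cells the values were 33.8, 36.4 and 41.0 CPM under DMSO and 21.7, 19.8 and 20.4 under NIF. All libraries under NIF lay below all those under DMSO. It fell by 0.74 on the log2 scale in ALDHbr cells (SE 0.074, edgeR adjusted p = 2.13e-06) and by 0.84 in ALDHneg cells (SE 0.074, edgeR adjusted p = 5.17e-07).

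CLDN3 had 195, 165 and 203 CPM in ALDHbr cells under DMSO and 121, 135 and 145 under NIF. In ALDHneg cells it had 141, 139 and 152 CPM and, under NIF, 113, 124 and 106. Within each population the groups did not overlap. The fall was 1.40-fold in ALDHbr cells (log2 -0.49, SE 0.086, edgeR adjusted p = 0.000402) and 1.26-fold in ALDHneg cells (log2 -0.33, SE 0.086, edgeR adjusted p = 0.0061). The call in ALDHneg cells was lost in a fit of all 24 libraries.

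CLDN12, a claudin without the usual PDZ-binding end, rose in both populations. It went from 48.1, 53.1 and 43.8 CPM under DMSO to 69.3, 69.1 and 64.7 under NIF in ALDHbr cells, and from 42.7, 47.0 and 51.6 to 69.8, 66.9 and 72.1 in ALDHneg cells. The libraries under NIF were all above those under DMSO. The log2 fold changes were 0.49 (SE 0.078, edgeR adjusted p = 0.000194) and 0.56 (SE 0.078, edgeR adjusted p = 4.41e-05).

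CLDN4 and CLDN7, both abundant claudins of glandular epithelium, changed less. CLDN4 had 414, 349 and 407 CPM in ALDHbr cells under DMSO and 417, 424 and 483 under NIF, and 342, 340 and 374 against 416, 436 and 397 CPM in ALDHneg cells, without overlap in either population. CLDN7 had 208, 173 and 205 against 196, 201 and 227 CPM in ALDHbr cells, where the groups overlapped, and 157, 164 and 170 against 206, 211 and 201 CPM in ALDHneg cells, where they did not. Averaged over the populations both rose, by 0.21 on the log2 scale for CLDN4 (SE 0.053, edgeR adjusted p = 0.00371) and 0.21 for CLDN7 (SE 0.052, edgeR adjusted p = 0.00306). The averaged call of CLDN4 was lost in the fit of all 24 libraries (0.22, edgeR adjusted p = 0.0617). In ALDHneg cells the log2 fold changes were 0.24 (edgeR adjusted p = 0.0176) and 0.33 (edgeR adjusted p = 0.00199), and in ALDHbr cells 0.18 (edgeR adjusted p = 0.0691) and 0.09 (edgeR adjusted p = 0.354). In each SW620 library the CLDN4 level went with that of CLDN7 (Pearson r = 0.948 over the 12 libraries, which share the 4 groups and their scaling), and that of CLDN1 with CLDN2 (r = 0.969).

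CLDN15, a channel-forming claudin of the small intestine, had 3.77 to 5.50 CPM in the 12 SW620 libraries and a log2 fold change of 0.0013 under NIF averaged over the populations (95% interval -0.21 to 0.21, edgeR adjusted p = 0.993). CLDN23 had 2.24 to 4.16 CPM and a log2 fold change of -0.00034 (95% interval -0.24 to 0.24, edgeR adjusted p = 0.998). CLDN11 did not pass the filter in SW620, and it was called higher in the fit of all 24 libraries, where it passed. With 1 to 17 counts in a SW620 library, that call rests on values near the floor. Of the 15 claudin genes outside the 9, 2 had no count in any library and only CLDN9, a gene known from the inner ear, had a group mean above 1 CPM, while the others reached at most 31 counts. CLDN9 had a mean of 3.85 ± 0.298 and 4.33 ± 0.331 CPM in SW620 ALDHbr and ALDHneg cells under DMSO and of 9.52 ± 1.51 and 10.5 ± 0.931 CPM under NIF (SD, n = 3). It rose by 1.29 on the log2 scale averaged over the populations (SE 0.086, edgeR adjusted p = 1.42e-08).

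**Figure D3:**
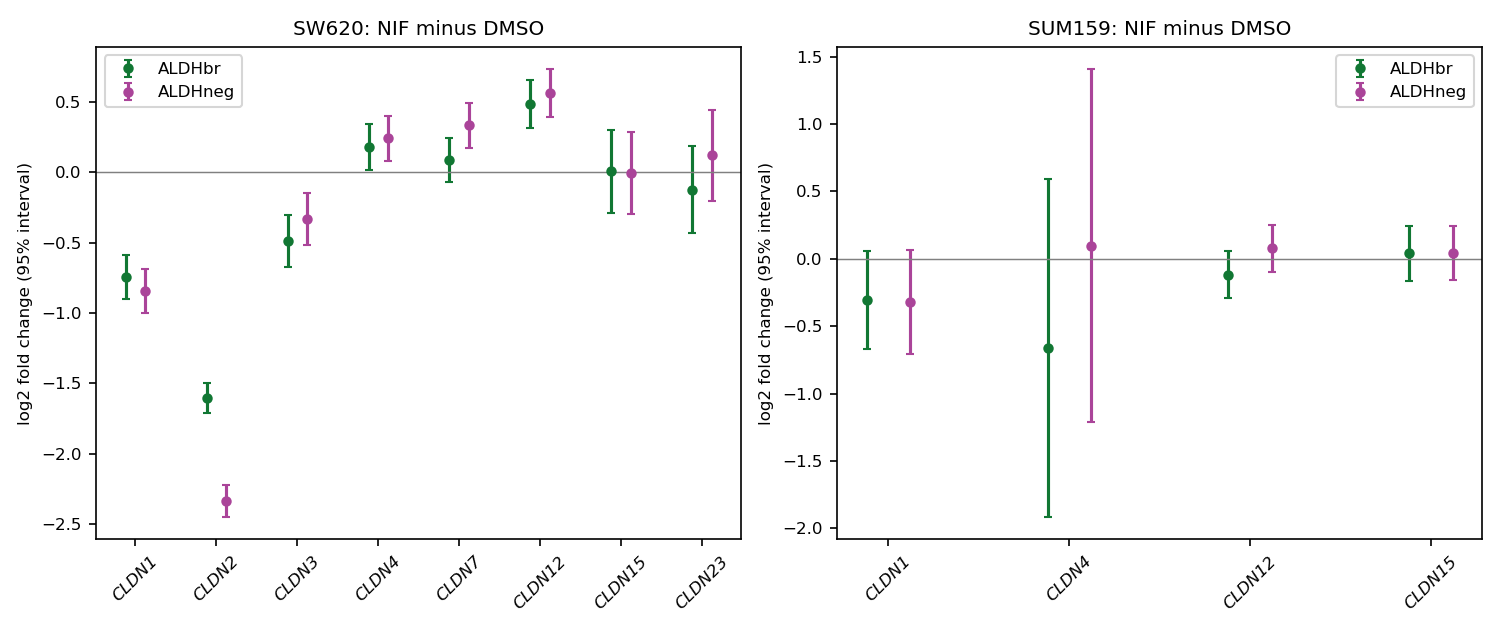
Log2 fold change of NIF against DMSO (vertical axes) with its 95% interval for the claudins that passed the filter, in ALDHbr (green) and ALDHneg cells (purple), in SW620 on the left and SUM159 on the right, with different vertical ranges. In SW620, CLDN2 lies at -1.60 and -2.34, and the intervals of the 4 claudins in SUM159 all include 0.

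The difference of the NIF response between ALDHbr and ALDHneg cells in SW620 is the contrast by which CLDN2 was chosen. For CLDN2 it was 0.73 on the log2 scale (95% interval 0.58 to 0.88), so the fall was smaller in ALDHbr cells. As ratios of mean CPM, ALDHbr cells held 1.32 times as much CLDN2 RNA as ALDHneg cells under DMSO and 2.20 times as much under NIF. Among the other members CLDN7 had a value of -0.24 with an interval that left out 0 (-0.47 to -0.02), and the intervals of CLDN1 (0.10, -0.12 to 0.32), CLDN3 (-0.16, -0.42 to 0.10), CLDN4 (-0.06, -0.29 to 0.17), CLDN12 (-0.08, -0.31 to 0.16), CLDN15 (0.01, -0.40 to 0.43) and CLDN23 (-0.24, -0.69 to 0.20) included 0. These are descriptions, with intervals not adjusted for the number of genes compared, and do not set CLDN7 apart from the other members.

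The SW620 populations were next compared with each other. Averaged over both treatments, CLDN1, CLDN3 and CLDN23 were higher in ALDHbr cells, 3 of the 7 members tested besides CLDN2, in a comparison in which 25.1% of the genes passed and 12.7% were higher. CLDN2 was, as a description, 1.71-fold higher (log2 0.77, 95% interval 0.70 to 0.85). CLDN23 was 1.32-fold higher (log2 0.40, edgeR adjusted p = 0.0155), CLDN3 1.23-fold (log2 0.30, edgeR adjusted p = 0.00372) and CLDN1 1.16-fold (log2 0.21, edgeR adjusted p = 0.0107). CLDN4 (0.12, edgeR adjusted p = 0.119), CLDN7 (0.13, edgeR adjusted p = 0.0705), CLDN12 (-0.0012, edgeR adjusted p = 0.989) and CLDN15 (0.07, edgeR adjusted p = 0.628) did not pass. In the fit of all 24 libraries none of these 7 was called.

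Colon epithelial markers moved with the populations. Averaged over the treatments, 8 of 10 were higher in ALDHbr cells and 0 lower, where 25.1% of all genes passed and 12.7% were higher. Under DMSO 3 of 10 were higher, where 11.3% of all genes passed and 5.45% were higher. Of 6 mesenchymal markers tested, 3 were lower in each of these comparisons. The part of these markers in the claudin values was not tested.

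Under DMSO alone, where 11.3% of the genes passed (5.45% higher), CLDN3 (log2 0.38, SE 0.086, edgeR adjusted p = 0.0135), CLDN7 (0.26, SE 0.073, edgeR adjusted p = 0.0396) and CLDN23 (0.52, SE 0.15, edgeR adjusted p = 0.0377) were higher in ALDHbr cells, and CLDN2 had, as a description, a value of 0.41 (95% interval 0.30 to 0.51). These calls depended on single libraries. Without ALDHbr DMSO replicate 2, which had the lowest CLDN3, CLDN4, CLDN7 and CLDN23 values of its group, 5487 genes in place of 1577 were called, and CLDN4 was called too (0.21, edgeR adjusted p = 0.0165). Without ALDHbr DMSO replicate 1 or 3, or ALDHneg DMSO replicate 1 or 2, none of CLDN3, CLDN7 and CLDN23 was called, and without ALDHneg DMSO replicate 3 CLDN7 was not.

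**Figure D4:**
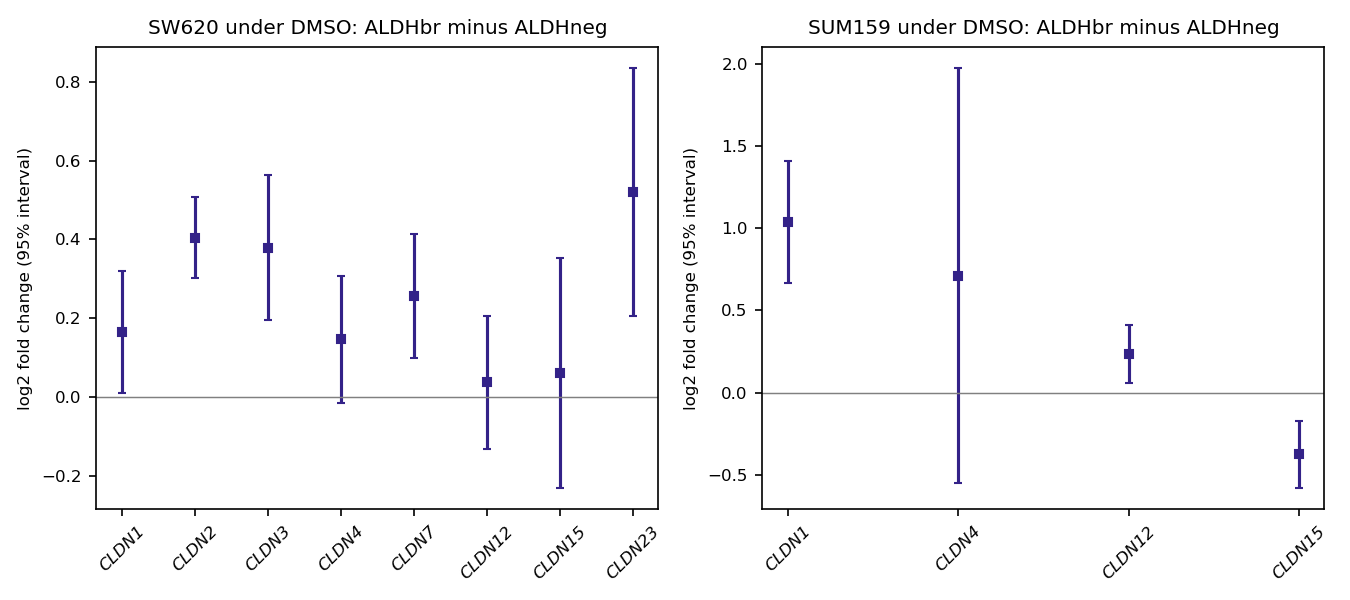
Log2 fold change of ALDHbr against ALDHneg cells under DMSO (vertical axes) with its 95% interval, in SW620 on the left and SUM159 on the right, with different vertical ranges. In SUM159, CLDN1 lies at 1.04 and CLDN15 at -0.37. In SW620 all claudins shown lie above 0, and the intervals of CLDN4, CLDN12 and CLDN15 include 0. The intervals are not adjusted for the number of genes, and CLDN1 in SW620 (0.16) was not called (edgeR adjusted p = 0.138).

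In SUM159, 4 members (CLDN1, CLDN4, CLDN12 and CLDN15) passed the filter among 14953 genes, and none was called for NIF against DMSO in either population, where 3.16% of the genes passed in ALDHbr and 3.3% in ALDHneg cells. Averaged over the populations, where 12.9% passed, CLDN1 was called only in some fits, as given after its values. CLDN1 had 18.3, 13.7 and 17.9 CPM in ALDHbr cells under DMSO and 14.8, 10.9 and 14.8 under NIF, and 10.2, 7.38 and 6.76 against 7.70, 6.16 and 5.56 CPM in ALDHneg cells. The groups of each population overlapped. The log2 fold changes were -0.30 (95% interval -0.67 to 0.06, edgeR adjusted p = 0.394) and -0.32 (-0.71 to 0.07, edgeR adjusted p = 0.413). CLDN12 had -0.12 (-0.29 to 0.06) and 0.08 (-0.10 to 0.25), and CLDN15 0.04 (-0.16 to 0.25) and 0.04 (-0.16 to 0.24). With the replicate number as a block, which pairs the SUM159 libraries, 1994 and 1970 genes in place of 473 and 493 were called, and again no member (CLDN1, edgeR adjusted p = 0.0605 and 0.0884). Averaged over the populations, CLDN1 had -0.31 (edgeR adjusted p = 0.119), and with the block, an alternative added after the data were seen, -0.31 with a call (edgeR adjusted p = 0.00616, 3975 genes called in place of 1922). It was lower under NIF in all 6 same-numbered pairs, and it was also called in the fit of all 24 libraries (edgeR adjusted p = 0.0481). CLDN4 had 8 to 46 counts per library, and its value in ALDHbr cells went from -0.66 to 0.55 without ALDHbr DMSO replicate 3.

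ALDHbr and ALDHneg cells of SUM159 differed in CLDN1 under DMSO, with 13.7 to 18.3 against 6.76 to 10.2 CPM and no overlap. It was 2.05-fold higher in ALDHbr cells (log2 1.04, SE 0.17, edgeR adjusted p = 0.000481), where 23% of the genes passed, 10.7% higher and 12.3% lower. CLDN15 went the other way, with 12.3, 13.2 and 13.7 CPM in ALDHbr and 17.7, 17.6 and 15.7 CPM in ALDHneg cells, also without overlap. It was 1.30-fold lower (log2 -0.37, SE 0.095, edgeR adjusted p = 0.0102), a call lost without ALDHbr DMSO replicate 1 (-0.33, edgeR adjusted p = 0.0501). CLDN12 had 42.8, 46.3 and 43.5 CPM in ALDHbr and 40.4, 37.6 and 34.6 CPM in ALDHneg cells and was 1.18-fold higher (log2 0.24, SE 0.081, edgeR adjusted p = 0.0497, and 0.00721 with the block), a call that was kept without ALDHneg DMSO replicate 1 and lost without any of the other 5 libraries compared. CLDN4 went from 0.71 to -0.49 without ALDHbr DMSO replicate 3 and was not called. With the block 5388 genes in place of 3432 were called. Averaged over both treatments, where 37.5% of the genes passed (17.8% higher and 19.7% lower), CLDN1 (1.04, edgeR adjusted p = 9.72e-06) and CLDN15 (-0.38, edgeR adjusted p = 0.000447) were called and CLDN12 (0.14, edgeR adjusted p = 0.0749) was not, while with the block CLDN12 was called as well (0.14, edgeR adjusted p = 0.017).

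The difference of the NIF response between the populations could be tested in SUM159, whose libraries did not enter the choice of CLDN2. CLDN2 itself had 14 counts over the 12 libraries and was not tested. CLDN1 had 0.01 (95% interval -0.51 to 0.54), CLDN12 -0.20 (-0.44 to 0.05), CLDN15 -0.00089 (-0.29 to 0.29) and CLDN4 -0.76 (-2.57 to 1.06), none of them called. No gene was called by edgeR (0%), 238 had an unadjusted p under 0.05, DESeq2 called 2 and the fit with the block 6.

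Between the lines, the claudins of the SW620 epithelium had few counts in SUM159. SW620 libraries held 894 to 6508 counts of CLDN2, 4178 to 8090 of CLDN3, 11858 to 17198 of CLDN4 and 5881 to 8634 of CLDN7. The 12 SUM159 libraries together held 14, 19, 186 and 27 counts of these genes. The ratio of pooled CPM was 3133 for CLDN2 (95% interval 1867 to 5731, counting error only) and 3659 for CLDN3 (2343 to 6078). It was 1027 for CLDN4 (890 to 1193) and 3422 for CLDN7 (2352 to 5193). The 19 counts of CLDN3 lay in ALDHbr DMSO replicate 3, and over the 11 libraries without it, an alternative added after the data were seen, CLDN3 was at 0, which makes it at least 21139-fold higher in SW620 against a floor of 3 counts over these libraries. Without that library the ratios were 4446 for CLDN2, 1245 for CLDN4 and 6483 for CLDN7. CLDN23 had 34 counts in SUM159 and 86 to 173 counts per library in SW620, a ratio of 46.2 (33.1 to 66.7).

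The remaining members were expressed in both lines or in neither. In the fit of all 24 libraries 90.5% of 16271 genes differed between the lines, 43% higher and 47.5% lower in SW620, so a call says little here. CLDN1 was 3.23-fold higher in SW620 (log2 1.69, SE 0.069, edgeR adjusted p = 1.6e-17) and CLDN12 1.60-fold (log2 0.68, SE 0.041, edgeR adjusted p = 6.31e-14). CLDN15 was 2.83-fold lower (log2 -1.50, SE 0.059, edgeR adjusted p = 6.66e-18). CLDN11 had 70 counts over the SUM159 libraries, at most 12 in one of them, and a log2 fold change of 0.08 (95% interval -0.64 to 0.80, edgeR adjusted p = 0.828). Per kilobase, the leading claudins of SUM159 ALDHbr cells under DMSO were CLDN12 (12.5 ± 0.518 CPM per kb), CLDN15 (10.7 ± 0.561) and CLDN1 (4.83 ± 0.730), while in ALDHneg cells CLDN15 (13.9 ± 0.917) stood above CLDN12 (10.6 ± 0.825) and CLDN1 (2.36 ± 0.539), each with n = 3. The median log2 fold change of all genes between the lines was -0.06, and -0.19, -0.25 and -0.31 with DESeq2, library-size scaling and no filter.

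Proteins that work with claudins were followed in fixed lists. Of 27 tight junction partners, 24 were tested in SW620, and NIF averaged over the populations left 10 higher, 5 lower and 9 not called, with a median log2 fold change of 0.06, near the share of all genes called (57%, with 27.9% higher and 29.2% lower). CGNL1 (paracingulin, a junction scaffold) went from 2.52 ± 0.217 to 5.61 ± 0.943 CPM in ALDHbr cells and rose by 1.19 on the log2 scale averaged over the populations (SE 0.093, edgeR adjusted p = 7.7e-08). TJP1, the scaffold ZO-1, rose by 0.52 (SE 0.094, edgeR adjusted p = 0.000318). TJP3, the scaffold ZO-3, fell by 0.67 (SE 0.040, edgeR adjusted p = 4.87e-09) and the polarity kinase PRKCZ fell by 0.39 (SE 0.047, edgeR adjusted p = 7.45e-06). MARVELD3 and ESAM, named after their values were seen, also fell. Of 10 adherens junction genes 4 were higher under NIF (among them CTNNB1, JUP and AFDN) and 3 lower (NECTIN1, NECTIN2 and EPCAM), and of 16 epithelial regulators, 15 of them tested, 2 were higher (KLF4 and OVOL1) and 8 lower. The list of 6 EMT repressors holds repressors that act in EMT, such as SNAI and ZEB factors, and not genes that oppose it. Of these, SNAI1 and ZEB1 were tested and both were higher, and these names too were chosen after their values were seen. In SUM159 no tight junction partner of 22 tested was called for NIF in either population. Of all genes 3.16% passed in ALDHbr and 3.3% in ALDHneg cells, so this lay near the background of these fits. These fits did not pair the libraries, and the lists were not counted with the replicate block, under which more genes were called. Averaged over the populations, where 12.9% of all genes passed, no tight junction partner was called either. There 1 of 7 adherens junction genes tested was higher and 3 were lower. Of 6 EMT repressors 1 was higher, and of 7 epithelial regulators 1 was lower.

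Between the lines 23 of the 27 tight junction partners were higher in SW620 and 4 lower, with a median log2 fold change of 3.53, where 90.5% of all genes were called, 43% higher and 47.5% lower. TJP3 had 1409 to 3042 counts in the SW620 libraries and 0 to 8 in the SUM159 libraries, and CRB3, a polarity protein, 841 to 1274 against 0 to 3. MPDZ, a multi-PDZ scaffold, was at 0 in all SW620 libraries with 643 to 1006 counts in SUM159, and the adhesion molecule JAM3 had 0 to 6 against 670 to 1352. The other partners lower in SW620 were JAM2 and MPP5, named after their values were seen. Of the epithelial regulators 14 of 15 tested were higher in SW620, among them HNF4A (1867 to 4895 against 0 to 3 counts), a transcription factor of gut and liver epithelium. All 6 EMT repressors were lower in SW620, among them TWIST2 (0 in every library against 1181 to 1708 counts) and ZEB2 (0 to 1 against 997 to 2586). Of 10 adherens junction genes 9 were higher in SW620 and 1 lower, CTNNB1, named after its value was seen.

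The responses of the lines were compared directly for CLDN1, CLDN12 and CLDN15, the members expressed in both, in comparisons added after the data were seen. For the NIF response averaged over the populations, where 35.1% of the genes passed, CLDN1 and CLDN12 differed between the lines. For the difference of ALDHbr against ALDHneg cells, where 29.7% passed, CLDN1 and CLDN15 did.

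The genes with a pattern most like that of CLDN2 were sought by Pearson r of log2 CPM over the 12 SW620 libraries, among 11223 genes with an average of at least 1 log2 CPM. These libraries share 4 groups, and so any gene that separates the groups in the same order scores high. ETS2, an ETS family transcription factor, had r = 0.997, with mean levels of 388 and 342 CPM in ALDHbr and ALDHneg cells under DMSO and of 255 and 203 CPM under NIF, with SDs of at most 6.04 CPM (n = 3). C1orf21 had r = 0.995 and PPFIBP2, a liprin, r = 0.994. PPFIBP2 went from 31.0 ± 1.35 and 24.5 ± 1.03 CPM under DMSO to 14.1 ± 0.847 and 9.33 ± 0.562 CPM under NIF (SD, n = 3).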

How the data were processed

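RNA was sequenced from SUM159 and SW620 cells sorted into ALDHbr and ALDHneg populations after 30 h under NIF or DMSO. The table the authors deposited holds whole-number counts of reads for each gene, not normalized. Per the labels, total RNA was used in a stranded protocol, and the submitters' processing notes name STAR, FastQC and GRCh38. The counting tool and annotation are not given in the sources used here. Replicates (3 independent experiments) differed by more than sampling noise (chi-square per gene 1.95 to 43.1 over 24 pairs).

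Tests used edgeR 4.0.16 under R 4.3.3 (filterByExpr by group, TMM, quasi-likelihood F test, two-sided, Benjamini-Hochberg over all genes tested, threshold 0.05). SW620 and SUM159 had separate fits of 12 libraries each, and all 24 libraries entered the comparison between lines. CPM used TMM-adjusted library sizes and log2 CPM a prior count of 2. Standard errors were the fold change divided by the root of F. Other settings tried were a replicate block, leaving out each library, only the groups compared, all 24 libraries, no filter, library-size scaling, RLE scaling and DESeq2 1.42.0. The steps were tested on simulated data. Ratios of pooled counts carry Poisson intervals, for counting error only.

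The members and lists (tight junction partners, adherens junction genes, epithelial regulators, EMT repressors, colon epithelial and mesenchymal markers) were chosen with earlier results of these data known. Named were all 9 members, any other claudin above 1 CPM in a group, the 2 highest and 2 lowest called tight junction partners (NIF in SW620, and between lines) and epithelial regulators or EMT repressors (between lines), both with an average log2 CPM of at least 1, the 3 genes most like CLDN2, and ALDH1A1. Further genes are given as marker checks. Some genes that these rules select are not reported here. Same-numbered libraries deviated together in SUM159 (12 of 12 correlations above 0.1, 0.182 to 0.451), which was taken as pairing, and not in SW620 (1 of 12).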

Additional observations from a re-analysis of the deposited data

Results flagged for a closer look

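Some claudin responses differed between the lines, by a test of the difference itself that was added after the data were seen (edgeR, all 24 libraries). The NIF response averaged over the populations differed for CLDN1 by -0.48 (SW620 minus SUM159, log2, SE 0.14, edgeR adjusted p = 0.00774), with -0.79 in SW620 and -0.31 in SUM159. It differed for CLDN12 by 0.55 (SE 0.083, edgeR adjusted p = 1.13e-05), with 0.52 in SW620 and -0.02 in SUM159, and for CLDN15 by -0.04 (SE 0.12, edgeR adjusted p = 0.888). In this test 35.1% of all genes passed. The difference of ALDHbr against ALDHneg cells averaged over the treatments differed for CLDN1 by -0.83 (SE 0.14, edgeR adjusted p = 5.23e-05), with 0.21 in SW620 and 1.04 in SUM159. For CLDN15 it differed by 0.44 (SE 0.12, edgeR adjusted p = 0.00675), with 0.07 in SW620 and -0.38 in SUM159, and for CLDN12 by -0.14 (SE 0.083, edgeR adjusted p = 0.211). Here 29.7% of all genes passed. The calls of CLDN1, CLDN12 and CLDN15 were the same in number under each alternative run and with each library left out.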

How the results depend on the processing

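As descriptions, the SW620 values of CLDN2 ran from -2.01 to -1.95 for NIF averaged over the populations and from 0.75 to 0.78 for ALDHbr against ALDHneg averaged over the treatments, over the alternatives run. Tested values counted as kept with the same direction and call, and values without a test if they moved by at most 1 SE, whatever their sign. Of 531 member values under settings other than leaving out a library, 492 were kept. Of the rest, 15 lost a call, 5 gained one, 17 changed sign and 2 without a test moved. Leaving out one library gave 936 values, of which 844 were kept, 21 lost a call, 9 gained one and 62 changed sign. Some kept values without a test also changed sign. With 1 library left out, the SW620 difference of the NIF response between the populations ran from -0.087 to 0.13 for CLDN15. For CLDN12 it ran from -0.15 to 0.00021. The cause of these changes was not tested. Apart from CLDN4 in SUM159, the sign changes concerned values of at most 0.08 in size.

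In SW620 the NIF value of CLDN15 in ALDHneg cells was 0.0042 with DESeq2, 0.0036 with RLE size factors, 0.0066 without the filter, 0.0033 with the replicate block, 0.0013 with only the groups compared and 0.0037 with all 24 libraries, and with library-size scaling it was -0.021 in ALDHbr cells and -0.042 on average. The averaged NIF value of CLDN23 was 0.0059 with DESeq2, 0.0055 with RLE, 0.010 without the filter and 0.0051 with all 24 libraries. The averaged population value of CLDN12 was 0.00020 and the line value of CLDN11 -0.099 with library-size scaling. The SUM159 interaction of CLDN15 was 0.00086 with DESeq2, 0.0016 with RLE and 0.0033 with all 24 libraries.

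Without the filter 2 members were called higher for NIF in SW620 ALDHbr cells. Under DMSO the SW620 populations had 1 member called higher with the replicate block and 1 with only the groups compared (729 genes called), and 0 with all 24 libraries. With all 24 libraries 1 member was called lower for NIF in SW620 ALDHneg cells and 0 higher in the averaged populations. SUM159 genes called for NIF numbered 863 with DESeq2, 1994 with the block and 725 with all 24 libraries in ALDHbr cells, and 856, 1970 and 743 in ALDHneg cells, where only the groups compared gave 292. The block gave 5388 for the SUM159 populations, where library-size scaling and only the groups compared left 1 member called higher. The SUM159 interaction had 2 genes called with DESeq2, 3 without the filter, 6 with the block and 1 with all 24 libraries. In SUM159 the block changed no member call within a population, between the populations under DMSO or in the interaction. Averaged over the populations it gave 3975 genes called for NIF and called CLDN1, as 1 member lower, which all 24 libraries gave too. Averaged over the treatments it called CLDN12, making 2 members higher. In SW620, whose numbers did not pair the libraries, the block ended the calls of CLDN7 and CLDN23 between the populations under DMSO.

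With each library left out, values ran as follows. In the SUM159 populations under DMSO CLDN4 ran from -0.49 to 1.16, with 1 to 2 members higher and 0 to 1 lower. For NIF in SUM159 ALDHbr cells CLDN15 ran from -0.031 to 0.091, CLDN4 from -1.02 to 0.55 and the genes called from 222 to 322. In ALDHneg cells the ranges were -0.013 to 0.12, -0.46 to 0.54 and 192 to 584. The SUM159 interaction ran from -0.19 to 0.17 for CLDN1, -0.075 to 0.054 for CLDN15 and -1.20 to 0.45 for CLDN4, with 0 to 2 genes called. The averaged SW620 populations ran from -0.048 to 0.031 for CLDN12 and -0.00091 to 0.11 for CLDN15, with 2303 to 6081 genes and 3 to 5 members higher, and under DMSO from -0.048 to 0.10 and -0.067 to 0.15, with 712 to 5487 genes and 0 to 4 members higher. For NIF in SW620 the average ran from -0.049 to 0.059 for CLDN15 and -0.058 to 0.066 for CLDN23, and CLDN15 from -0.092 to 0.0998 in ALDHbr cells, with 1 to 2 members higher, and from -0.11 to 0.099 in ALDHneg cells. The SUM159 averages, whose alternatives were added after the data were seen, ran from -0.56 to 0.32 for CLDN4 and -0.053 to 0.015 for CLDN12 for NIF, and from -0.27 to 0.61 for CLDN4 between the populations, with 1 to 2 members higher. The line value of CLDN11 ran from -0.096 to 0.28, and the line difference of the NIF response of CLDN15 from -0.097 to 0.028. The call of CLDN4 for NIF in ALDHneg cells was lost without ALDHneg NIF replicate 2 (edgeR adjusted p = 0.0751) or ALDHneg DMSO replicate 2 (0.0506). Low counts, at most 46 in a library, limit CLDN2, CLDN3, CLDN4, CLDN7, CLDN11 and CLDN23 in SUM159.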
